A study of Mus musculus with 12 samples.

Results

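Alloactivation of wild-type (WT) CD8 T cells was examined by comparing 3 libraries of donor cells recovered at day 7 post-transplant with 3 libraries of cells sorted before transplant. These 6 of the 12 RNA-seq libraries of the series were taken by their titles, and the other 6, labelled TCF-7 cKO at the same stages, came from donors with a floxed TCF-1 gene and Cre under the CD4 promoter. All 6 WT libraries were labelled as sorted CD8 T cells from spleen, of wild-type genotype and C57BL/6 background, so that neither group carried a Cre or a deleted allele. The pre-transplant cells were sorted straight from donor spleen. The post-transplant cells had been given with WT bone marrow to lethally irradiated BALB/c mice, which differ from the donors in their major histocompatibility (MHC) haplotype, and were sorted back from the recipients' spleens as donor cells. The sources used here do not say how many mice stand behind each library, so p-values measure the spread between these libraries. Whether a change came with transfer, irradiation, the allogeneic host or time cannot be told apart, because no syngeneic recipients or other days were measured.

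A naive CD8 T cell circulates through lymphoid tissue with a program of quiescence and homing genes. When its T cell receptor meets foreign MHC molecules with bound peptide, it enlarges, turns to glycolysis, divides repeatedly and acquires granzymes, perforin and inflammatory cytokines. In graft-versus-host disease such alloactivated cells attack host tissue, and the same cells can clear residual leukemia.

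The post-transplant libraries held 18184814 to 32657005 estimated counts and the pre-transplant libraries 18978963 to 28884454. Levels are given as CPM, the usual scale of counts relative to library size, here after scaling each library by edgeR's TMM method, and every log2 change is post-transplant minus pre-transplant. Of 16790 genes tested, 1628 (9.7%) were higher and 1734 (10.3%) lower post-transplant at an FDR of 0.1 (quasi-likelihood test of edgeR, Benjamini-Hochberg adjusted). Without pre-transplant replicate 1, 2 or 3 the number higher was 795, 903 and 694 and without post-transplant replicate 3 it was 2510, while the number lower was 1150 without pre-transplant replicate 1, 885 without pre-transplant replicate 3 and 814 without post-transplant replicate 1. The libraries of both groups did not overlap for 5567 genes (33.2%). The median log2 change of all genes tested was -0.30. The split depended on how libraries were scaled, and higher genes made up 48.4% of the calls under TMM, 14.8% under library totals and 60.1% after an offset for GC content and gene length. The TMM factors were 1.28 to 1.57 in the pre-transplant and 0.585 to 0.871 in the post-transplant libraries. Post-transplant replicate 3 stood apart in GC content. Across genes, the log ratios of post-transplant replicates 1 and 2 to replicate 3 had a Spearman's rho of 0.426 and 0.482 with GC content. Genes of high GC content thus tended to be lower in replicate 3.

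Marker lists, summed in each library, measured how much RNA of other blood cells the libraries held. The B cell, plasma cell, erythroid, granulocyte, monocyte and platelet sums were lower in every post-transplant library, by widely different amounts. The NK cell sums overlapped between groups, but that list includes Gzmc, which stimulated T cells also make and which rose. Gzmc gave 22.3, 28.7 and 18.6 CPM of the post-transplant NK sums of 42.9, 38.3 and 37.9 CPM in replicates 1 to 3. The 18 B cell genes, which include the antigen receptor chains Ighm and Igkc, the signalling chain Cd79a and MHC class II genes, summed to 39962, 36281 and 43539 CPM in pre-transplant replicates 1 to 3 and to 776, 1261 and 626 CPM post-transplant. The 20 pan-T cell genes, which include the CD3 chains, the T cell receptor constant regions, Lck and Zap70, ran the other way. They summed to 2932, 3124 and 3216 CPM before and 19639.9, 21272 and 18905 CPM after transplant. Thus every library labelled as sorted CD8 T cells before transplant held more counts of B cell markers than of pan-T markers, and every post-transplant library the reverse. In RNA from a mixed sample, fewer cells of a type and less RNA per cell cannot be told apart.

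**Figure D1:**
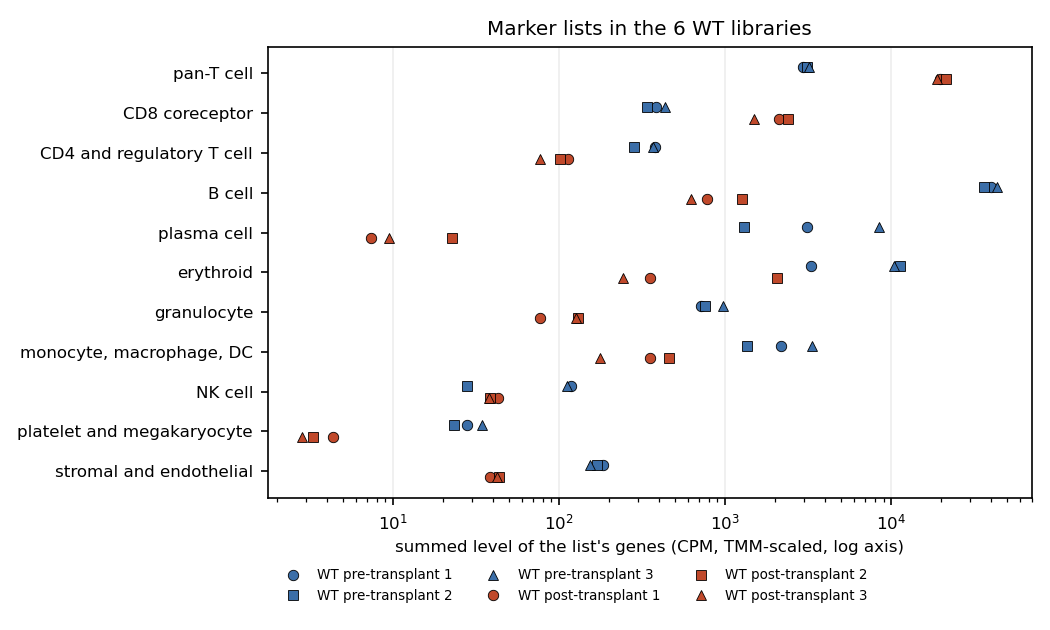
Summed level of 11 marker lists in each WT library (CPM, TMM-scaled, log axis), with pre-transplant libraries in blue and post-transplant libraries in red. The lists of B cells, plasma cells, erythroid cells, granulocytes, monocytes and platelets lie lower in all 3 post-transplant libraries. The pan-T and CD8 lists lie higher. Only the NK cell list, which includes the granzyme Gzmc that rose, overlaps among those shown.

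All 18 B cell genes fell, with a median log2 change of -7.19, and the same 18 fell in the fits that left out any 1 WT library. Fcer2a, the low-affinity IgE receptor CD23 of mature B cells, was at 372, 383 and 432 CPM before and 1.17, 1.52 and 1.52 CPM after transplant (log2 change -8.14, SE 0.59, adjusted p = 0.000319). Cr2, the complement receptor of B cells, went from 366, 123 and 516 CPM to 0.477, 0.974 and 0.825 CPM (-8.79, SE 0.83, adjusted p = 0.000565). Neither gene overlapped between groups. Igkc, the kappa light chain, kept 63.9 to 86.8 CPM post-transplant against 3812 to 7235 CPM before. All immunoglobulin genes together took 2.22% to 3.91% of the counts of a pre-transplant library and 0.0446% to 0.0511% of a post-transplant library. All 5 plasma cell genes tested fell too, among them the antibody heavy chain Ighg2b (-10.21), the chaperone Mzb1 (-7.96) and the joining chain Jchain (-7.13).

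Red cell and myeloid lists had smaller median changes than the B cell list. Of 12 erythroid genes tested, 11 fell (median -3.46), and the count was 6 without pre-transplant replicate 3 and 5 without post-transplant replicate 1. Alas2, the first enzyme of erythroid heme synthesis, was at 24.8, 119 and 149.6 CPM before and 5.25, 5.72 and 5.33 CPM after transplant (-4.17, SE 0.74, adjusted p = 0.0057). Its post-transplant level was even across libraries, whereas pre-transplant replicate 1 was lowest among the earlier libraries. The summed erythroid list was at 2048 CPM in post-transplant replicate 2 against 3314 CPM in pre-transplant replicate 1, the nearest pair between groups. Hemoglobin genes took 0.442% to 1.73% of pre-transplant counts and 0.0199% to 0.119% of post-transplant counts, the highest of the latter being replicate 2. The red cell gene Tspo2 had 152, 210 and 157 counts before and 0, 2 and 1 counts after transplant, a ratio of 94.8 (95% counting interval 32.3 to 461).

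Of 11 granulocyte genes 9 fell (median -2.76), and without post-transplant replicate 1 the count was 4. Csf3r, the receptor for the granulocyte growth factor G-CSF, was at 103, 107 and 145 CPM before and 0.911, 1.83 and 1.27 CPM after transplant (-6.47, SE 0.64, adjusted p = 0.000565). S100a9, a calcium-binding protein abundant in neutrophils, kept 5.90 to 24.0 CPM (-3.87). Of 18 monocyte, macrophage and dendritic cell genes 12 fell (median -3.06), with 7 without pre-transplant replicate 1 and 7 without post-transplant replicate 1. Lyz2, the lysozyme of macrophages, fell from 772 to 1839 CPM down to 13.1 to 26.0 CPM (-6.14), and Flt3, a receptor of dendritic cell precursors, from 22.4 to 33.0 CPM down to 1.46 to 1.52 CPM (-4.15). Of 5 platelet genes tested 2 fell, and the call of the chemokine Pf4 (-3.72, adjusted p = 0.0608) held in only 1 of the 6 fits that left out a WT library, that without post-transplant replicate 3. Ppbp, another platelet chemokine, had 363, 19 and 272 counts before and 0, 0 and 1 count after transplant, a ratio of 358 with a 95% counting interval of 64.1 to 14179. Counting intervals cover counting error only. Of 5 stromal and endothelial genes 1 fell, the endothelial adhesion molecule Pecam1 (-2.11, adjusted p = 0.0153), which leukocytes also express, and its call was lost without post-transplant replicate 1 (adjusted p = 0.131).

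Of 6 NK cell genes tested 3 fell and 1 rose, and without pre-transplant or post-transplant replicate 1 only 1 fell. Klra4, an inhibitory Ly49 receptor, had 473, 114 and 522 counts before and 1, 1 and 3 counts after transplant, a ratio of 122 (95% counting interval 51.9 to 375). Ncr1, the activating receptor NKp46, fell from 42.3, 8.48 and 27.8 CPM to 1.78, 2.37 and 4.51 CPM (-3.18, adjusted p = 0.0248), a call lost without pre-transplant replicate 1 (adjusted p = 0.108) or post-transplant replicate 1 (adjusted p = 0.144). Gzmc, a granzyme made by NK cells and by strongly stimulated cytotoxic T cells, had 0, 0 and 2 counts before and 513, 471 and 293 counts after transplant, a ratio of 1165 (95% counting interval 322 to 9629.8). The Ly49 gene Klra9 also fell but overlapped between groups (-3.80, adjusted p = 0.0566), and its call was lost in 5 of the 6 fits that left out a WT library (adjusted p = 0.114 to 0.216). Klra4 and Klra9, like Gzmb and Gzmc and the hemoglobin chains, belong to families of similar sequence, and counts can be shared between members.

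Cd4, the coreceptor of helper T cells, fell from 104, 84.4 and 82.6 CPM to 1.13, 4.26 and 3.74 CPM (-4.90, SE 0.69, adjusted p = 0.00233). Cxcr5, a chemokine receptor of B cells and follicular helper T cells, fell from 138 to 215 CPM down to 1.28 to 3.77 CPM (-6.05). Of the 6 genes of the CD4 and regulatory T cell list, 3 fell and 1 rose. The one that rose was Ctla4, which activated CD8 T cells also express (3.22, adjusted p = 0.0546), and its call was lost without pre-transplant replicate 1, 2 or 3 or post-transplant replicate 1 (adjusted p = 0.142, 0.113, 0.104 and 0.117).

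The 5 genes with the smallest p-values among all that fell without overlap and stood on no list were Siglecg, an inhibitory lectin of B cells, Cnr2, a cannabinoid receptor abundant on B cells, Lmo2, a transcriptional cofactor of blood progenitors and B cells, the sphingosine phosphate receptor S1pr3 and the kinase Srpk3. Siglecg was at 467, 306 and 463 CPM before and 1.04, 2.86 and 1.78 CPM after transplant (-7.77, SE 0.68, adjusted p = 0.000525). The other 4 had log2 changes of -7.37 to -8.23 and stayed below 1 CPM in each post-transplant library.

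**Figure D2:**
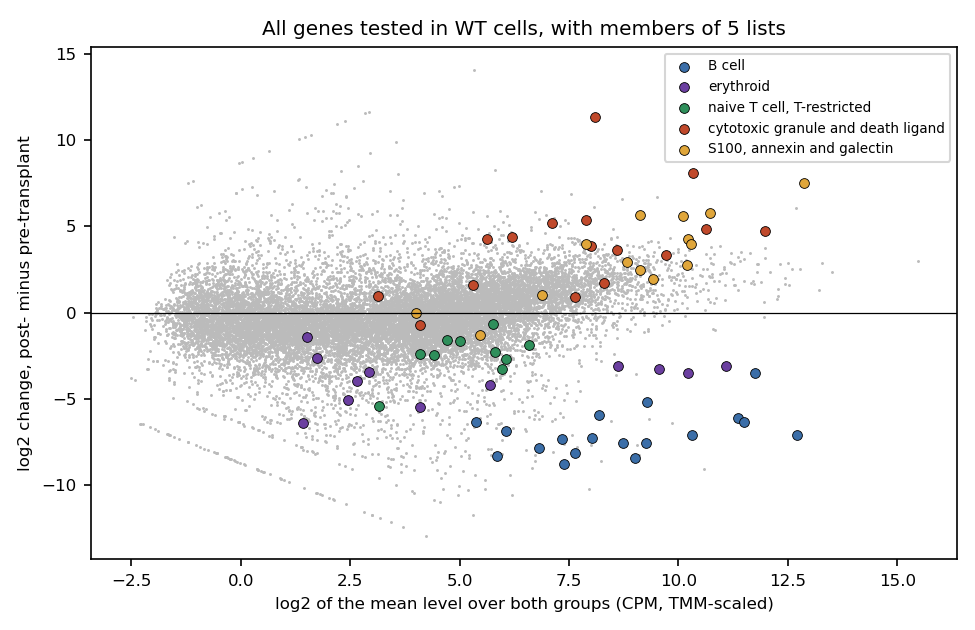
Log2 change of every gene tested against its mean level over both groups (CPM, TMM-scaled), with members of 5 lists in colour. Among the coloured genes those of B cells reach lowest (-8.79 to -3.50), and Gzmk, Gzmb and Lgals1 lie highest. Erythroid genes (-6.40 to -1.43) and naive T cell genes (-5.39 to -0.68) lie below 0 and overlap the B cell genes in range. The thin diagonal lines of grey points are genes with no counts in 1 group, whose fitted change depends on the prior count.

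Most pan-T genes and both CD8 genes rose on this scale. Cd8a, the alpha chain of the CD8 coreceptor, was at 146, 84.3 and 146 CPM before and 595, 706 and 355 CPM after transplant (2.14, SE 0.50, adjusted p = 0.0189), and Cd8b1 at 240.1, 253 and 290.4 CPM and then 1517, 1699 and 1136 CPM (2.47, SE 0.43, adjusted p = 0.00551). Of the 20 pan-T genes 14 rose (median 2.35), and without pre-transplant replicate 1, 2 or 3 the count was 8, 9 and 8. Zap70, the kinase that docks on the stimulated receptor, went from 91.0, 69.0 and 82.3 CPM to 1365, 2370.3 and 436 CPM (4.11, SE 0.65, adjusted p = 0.00354, and 2.13, adjusted p = 0.0113 scaled to pan-T genes). Cd6 and Ubash3a, which restrain receptor signals, overlapped between groups (1.26, adjusted p = 0.272 and 1.31, adjusted p = 0.164, or -0.72 and -0.68 scaled to pan-T genes). Zap70, Cd6 and Ubash3a are among the genes that set the pan-T scaling, so their values on it are relative to that set.

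To set T cell genes against one another, the libraries were rescaled so that the pan-T genes had equal mean log2 levels, and again by Cd8a and Cd8b1 alone. Both scalings assume that those genes did not change per cell, which was not tested. Scaled to pan-T genes, 375 genes (2.23%) were higher and 9282 (55.3%) lower, and the median of all genes was -2.15. The 375 were all among the genes that rose under TMM. Scaled to Cd8a and Cd8b1, 250 genes (1.49%) were higher and 11059 (65.9%) lower, the median was -2.56, and 17 genes that rose under TMM were called lower. Higher genes made up 3.88% and 2.21% of the calls. The results for T cell genes are therefore given with both values where the scaling decides the call. Counts that rose or fell on these scales are to be read beside these shares of all genes, and single values beside these medians.

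**Figure D3:**
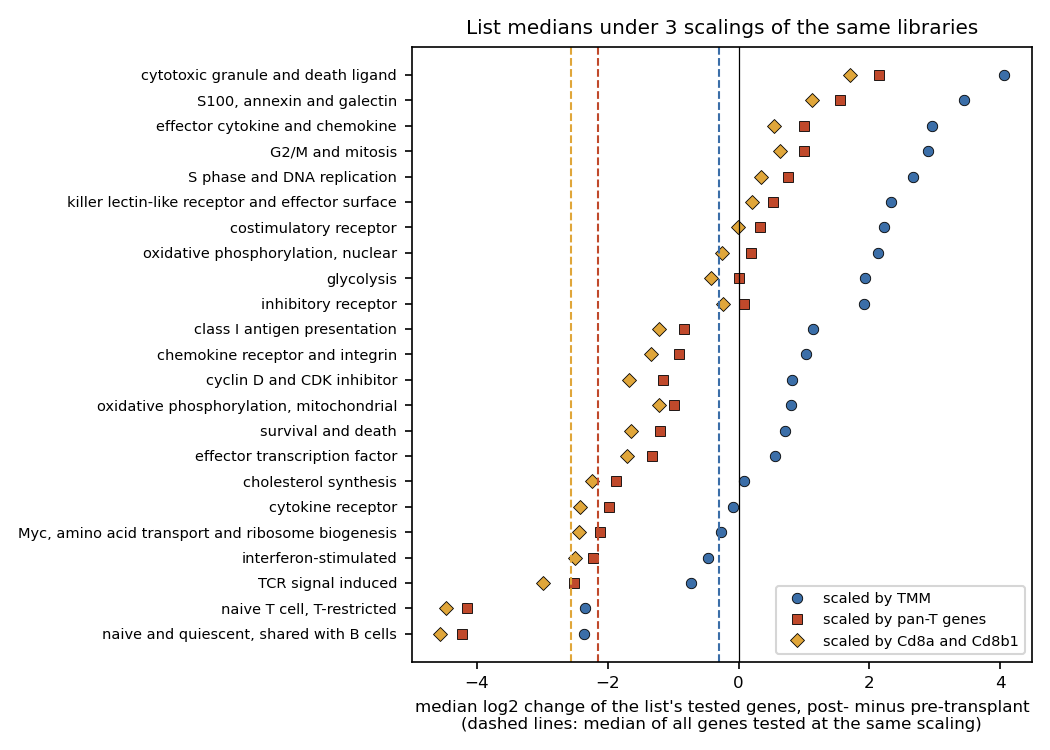
Median log2 change of each T cell state and process list under TMM (blue circles), scaling to pan-T genes (red squares) and scaling to Cd8a and Cd8b1 (yellow diamonds), with dashed lines at the median of all genes tested. Cytotoxic, S100 and cell cycle lists have medians above 0 under all 3 scalings, glycolysis and inhibitory receptor lists lie between -0.42 and 0.082 under the other two, and both naive lists are below 0 under all 3.

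The cytotoxic list had the highest median of the lists. Of 16 genes 12 rose and none fell (median 4.05), and scaled to pan-T genes 11 rose and 1 fell (median 2.15). Gzmk (ENSMUSG00000042385, chromosome 13, 113171608 to 113225908 in GRCm38), a granzyme of effector and memory cells, was at 0.203, 0.136 and 0.282 CPM before and 443, 276 and 912 CPM after transplant (11.32, SE 0.84, adjusted p = 0.000319). Gzmb (ENSMUSG00000015437, chromosome 14, 56258838 to 56262260), the granzyme that activates caspases in target cells, went from 19.0, 3.12 and 6.32 CPM to 2453, 1343 and 3912 CPM (8.08, SE 0.90, adjusted p = 0.000873). Both granzymes were highest in post-transplant replicate 3 and lowest in replicate 2, and neither overlapped between groups. Per length, mean TPM post-transplant was 422 for Gzmk and 1296 for Gzmb. Nkg7, a membrane protein of cytotoxic granules, reached 8739, 11959 and 2714 CPM from 325, 231 and 333 CPM (4.72, SE 0.61), and Cst7, the inhibitor of granule proteases cystatin F, 520.4, 587 and 334 CPM from 23.2, 25.9 and 50.4 CPM (3.86, SE 0.55). All 4 also rose when scaled to pan-T genes (9.58, 6.25, 2.75 and 1.97) or to Cd8a and Cd8b1 (9.29, 6.02, 2.31 and 1.56). Unc13d, which primes granules for release, had 131 to 878 CPM post-transplant and overlapped with the 141 to 151 CPM before (1.69, adjusted p = 0.108, and -0.28 scaled to pan-T genes). Leaving out any 1 WT library gave 11 to 13 genes that rose.

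**Figure D4:**
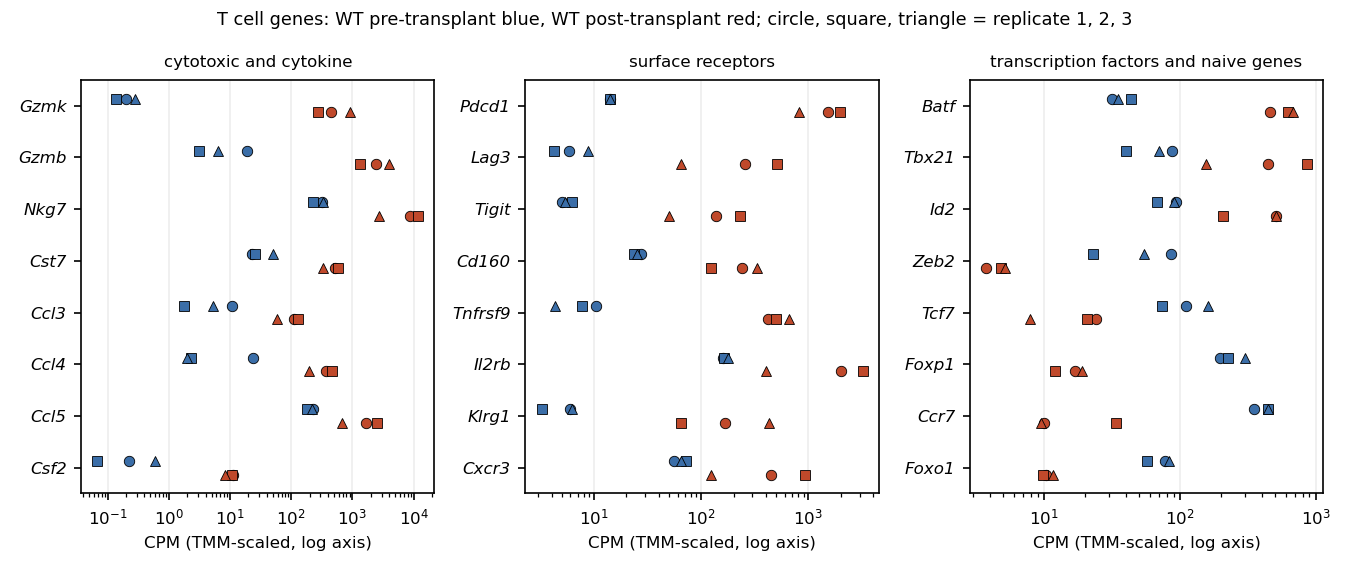
CPM (TMM-scaled, log axis) of 24 T cell genes in the 3 pre-transplant (blue) and 3 post-transplant (red) WT libraries, with circle, square and triangle for replicates 1, 2 and 3. Groups do not overlap for any gene drawn. Zeb2, Tcf7, Foxp1, Ccr7 and Foxo1 lie lower and the other 19 higher post-transplant.

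Among effector cytokines and chemokines, 7 of 13 rose and 2 fell (median 2.95), against 9.7% and 10.3% of all genes tested. Scaled to pan-T genes 5 rose and 4 fell (median 1.00), against 2.23% and 55.3% of all genes. Scaled to Cd8a and Cd8b1 3 rose and 4 fell (median 0.55), against 1.49% and 65.9%. Ccl3, Ccl4 and Ccl5, chemokines that draw leukocytes, and Csf2, the growth factor GM-CSF, were the 4 with the smallest p-values under TMM. Ccl4 went from 24.0, 2.27 and 1.97 CPM to 375, 463 and 199 CPM (5.20, SE 1.04, adjusted p = 0.00983) and Csf2 from 0.228, 0.0679 and 0.595 CPM to 11.3, 10.6 and 8.31 CPM (5.06, SE 1.01, adjusted p = 0.00957). Csf2 thus stayed low in level for all its fold change. Scaled to pan-T genes Ccl3, Ccl4 and Csf2 remained higher (2.12, 3.19 and 3.23) and Ccl5 missed the threshold (1.00, adjusted p = 0.102). Lta, which encodes lymphotoxin alpha, fell from 51.5, 23.9 and 32.5 CPM to 0.0434, 1.83 and 1.40 CPM (-5.06, SE 1.07, adjusted p = 0.0126). Ltb, its partner chain, overlapped between groups (-0.18, adjusted p = 0.853, 0.056 under DESeq2's size factors, and -2.12, adjusted p = 0.00616 scaled to pan-T genes). The last value of Ltb was near the median of all genes on the pan-T scale (-2.15). Ccl9 also fell (-2.25, adjusted p = 0.0982), and in each of the fits that left out 1 library only 1 gene of the list fell. The part of other cells' transcripts in the falls of Lta and Ccl9 was not tested.

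The inhibitory receptors rose in part. Pdcd1, which encodes PD-1 (chromosome 1, 94038305 to 94052553), was at 14.0, 14.1 and 13.9 CPM before and 1529.8, 1987 and 811 CPM after transplant (6.69, SE 0.59, adjusted p = 0.000525). Lag3, a receptor for MHC class II, went from 5.76, 4.24 and 8.70 CPM to 256, 512 and 64.3 CPM (5.48, SE 0.83, adjusted p = 0.00294), and Tigit, a receptor for nectin-like ligands, from 4.98, 6.21 and 5.32 CPM to 138, 229 and 50.3 CPM (4.66, SE 0.69, adjusted p = 0.0027). All 3 were highest in post-transplant replicate 2 and lowest in replicate 3, the reverse of Gzmk and Gzmb. This contrast did not divide receptors from granule genes. Nkg7, Cst7 and Gzmc had the same order as Pdcd1, whereas the inhibitory receptor Cd160 (239, 123 and 328 CPM) had that of Gzmk. Replicate 3 also stood apart in GC content. Pdcd1, Lag3 and Tigit rose as well when scaled to pan-T genes (4.75, 3.51 and 2.69), and to Cd8a and Cd8b1 (4.30, 3.04 and 2.19). Of the 12 receptors 6 rose and none fell (median 1.92), but scaled to pan-T genes 4 rose and 4 fell (median 0.082). On that scale 2.23% of all genes were higher and 55.3% lower. Btla, an inhibitory receptor also found on naive and B cells, overlapped under TMM (-2.51, adjusted p = 0.107) and fell when scaled to pan-T genes (-4.17, adjusted p = 0.00846).

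Costimulatory and cytokine receptors were mixed. Of 10 costimulatory receptors 6 rose and 1 fell (median 2.22), with 3 that rose without pre-transplant replicate 3. Among all genes tested 9.7% rose and 10.3% fell. Scaled to pan-T genes 3 rose and 2 fell (median 0.33), against 2.23% and 55.3% of all genes. Scaled to Cd8a and Cd8b1 2 rose and 4 fell (median -0.00097), against 1.49% and 65.9%. The one that fell under TMM, the CD40 ligand gene Cd40lg (-3.23, adjusted p = 0.0566), lost its call without any 1 pre-transplant library or post-transplant replicate 3. Tnfrsf9, which encodes 4-1BB, a receptor induced by T cell receptor signals, rose from 10.4, 7.70 and 4.35 CPM to 419.6, 498 and 664 CPM (6.14, SE 0.61, adjusted p = 0.000565, and 4.28 scaled to pan-T genes). Il2rb, the beta chain shared by the IL-2 and IL-15 receptors, rose from 161, 162 and 178 CPM to 2018, 3211 and 405 CPM (3.49, SE 0.69, adjusted p = 0.00946, and 1.51, adjusted p = 0.0536 scaled to pan-T genes). Scaled to Cd8a and Cd8b1, Il2rb missed the threshold (1.01, adjusted p = 0.124). By contrast the receptor chains Ifngr2 and Il6ra fell, for interferon gamma from 68.5, 75.9 and 76.5 CPM to 0.998, 1.34 and 3.30 CPM (-5.30, SE 0.70, adjusted p = 0.00176) and for IL-6 from 39.9, 54.4 and 75.6 CPM to 2.60, 1.40 and 3.17 CPM (-4.56, SE 0.66, adjusted p = 0.00258). B and myeloid cells also carry both receptors, and the part of their markers in these falls was not tested. Il2rg, the common gamma chain, overlapped between groups (0.23, adjusted p = 0.808, and -1.71, adjusted p = 0.0135 scaled to pan-T genes). The last value of Il2rg lay above the median of all genes on the pan-T scale (-2.15). Of 18 cytokine receptor genes 4 rose and 3 fell (median -0.077), against 9.7% and 10.3% of all genes tested. Without pre-transplant replicate 1, 2 or 3 or post-transplant replicate 1 the count that rose was 2, 2, 1 and 2.

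Of 12 killer lectin-like receptors and effector surface genes 7 rose and none fell (median 2.32), against 3 and 1 when scaled to pan-T genes (median 0.53). Klrg1, a marker of short-lived effector cells, rose from 5.97, 3.22 and 6.23 CPM to 165, 65.3 and 428 CPM (5.41, SE 0.80, adjusted p = 0.00279). Klrc1 and Klrd1, the NKG2A and CD94 chains of 1 receptor for the class I molecule Qa-1, rose by 5.53 and 4.29 in log2. Like Klrg1 they were lowest in post-transplant replicate 2 and highest in replicate 3, and all 3 rose when scaled to pan-T genes (3.69, 3.79 and 2.55). Among 14 chemokine receptors and integrins 6 rose and 2 fell (median 1.03), but none was higher when scaled to pan-T genes. Cxcr3, a receptor for interferon-induced chemokines, rose from 56.0, 72.6 and 64.3 CPM to 444, 927 and 124 CPM (2.95, SE 0.69, adjusted p = 0.0192, and 0.97, adjusted p = 0.184 scaled to pan-T genes). The number that rose was 2, 1 and 0 without pre-transplant replicate 1, 2 and 3. S1pr5, an egress receptor of NK and effector cells, fell from 11.1, 22.6 and 29.9 CPM to 0.998, 0.487 and 0.888 CPM (-4.73, SE 0.78, adjusted p = 0.00429). Cxcr4, the receptor that holds cells in bone marrow, fell too (-1.73, adjusted p = 0.0913), a call lost without any 1 WT library.

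Galectins and S100 genes rose steeply. Lgals1, which encodes the secreted lectin galectin-1, stood at 73.7, 112 and 61.8 CPM before and 10442, 16016 and 18110.2 CPM after transplant (7.49, SE 0.54, adjusted p = 0.000319). Lgals3, or galectin-3, rose from 67.3, 37.7 and 79.1 CPM to 3476, 4267 and 2247 CPM (5.76, SE 0.56), and S100a6 and S100a4, small calcium-binding proteins of motile cells, by 5.62 (SE 0.50) and 5.68 (SE 0.52). Together with Gzmk and Pdcd1, Lgals1, S100a6 and S100a4 were the 5 genes with the smallest p-values among those that rose without overlap. Of 14 S100, annexin and galectin genes 11 rose (median 3.45), 11 to 12 in fits without any 1 WT library, and scaled to pan-T genes 8 rose and 2 fell. Anxa5, a phospholipid-binding annexin, did not pass (1.03, adjusted p = 0.227, and -0.89 scaled to pan-T genes).

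Effector transcription factors showed no single direction. Of 14 genes 4 rose and 3 fell (median 0.56), against 9.7% and 10.3% of all genes tested. Scaled to pan-T genes 1 rose and 7 fell (median -1.32). On that scale 2.23% of all genes were higher and 55.3% lower (median -2.15), so that the count that fell was near the background. Batf, the AP-1 family factor of effector differentiation, was the one that rose on both scales, from 31.9, 43.6 and 35.2 CPM to 461, 628 and 681 CPM (4.0, SE 0.49, adjusted p = 0.00125, and 2.15, adjusted p = 0.00597 scaled to pan-T genes). Tbx21, which encodes T-bet, rose from 87.5, 40.1 and 70.1 CPM to 449, 863 and 157 CPM (2.89, SE 0.67, adjusted p = 0.0185) but not when scaled to pan-T genes (0.92, adjusted p = 0.198). Id2 gave 2.27 and 0.44 on the same scales, and Bhlhe40 2.10 and 0.15, with -0.28 when scaled to Cd8a and Cd8b1. Without pre-transplant replicate 3 only 1 factor rose, and Tbx21 and Id2 then had an adjusted p of 0.101 each. Zeb2, a repressor that drives terminal effector differentiation and that myeloid and NK cells also express, fell from 85.7, 22.8 and 54.5 CPM to 3.73, 4.81 and 5.14 CPM (-3.57, SE 0.67, adjusted p = 0.00743). Irf8 overlapped between groups (-0.61, adjusted p = 0.583). The number that fell was 1 without any 1 pre-transplant library or post-transplant replicate 1 or 2.

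Most genes of the naive program fell. They were split into 10 genes listed as T-restricted and 14 listed as shared with B cells, so that falls of B cell transcripts could be read beside them. Whether the 10 are absent from other blood cells was not tested. Of the T-restricted genes 8 fell and none rose (median -2.34), and of the shared genes 12 fell and none rose (median -2.36). Scaled to pan-T genes, all 10 T-restricted genes fell (median -4.14) and 13 of the 14 shared ones (median -4.23). On that scale 55.3% of all genes tested were lower, and their median was -2.15. Tcf7 (ENSMUSG00000000782, chromosome 11, 52252371 to 52283014), which encodes the naive and memory factor TCF-1, was at 111, 73.6 and 160.1 CPM before and 24.3, 20.6 and 7.93 CPM after transplant (-2.71, SE 0.61, adjusted p = 0.0172, and -4.64, adjusted p = 0.000338 scaled to pan-T genes). Igfbp4, a growth factor binding protein marking naive T cells, fell from 124, 115 and 103 CPM to 7.55, 20.4 and 7.17 CPM (-3.28, SE 0.61, adjusted p = 0.00707), and the sialyltransferase St8sia6 from 18.6, 7.13 and 26.9 CPM to below 1 CPM (-5.39). Il7r, the survival receptor for IL-7, overlapped between groups at 39.5 to 93.7 and 20.3 to 59.3 CPM (-0.68, adjusted p = 0.488, and -2.47, adjusted p = 0.0102 scaled to pan-T genes). The number of T-restricted genes that fell was 5, 5 and 3 without pre-transplant replicate 1, 2 and 3, and 3 and 5 without post-transplant replicate 1 and 2.

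Of the shared genes, Ccr7, the chemokine receptor for entry into lymph nodes, fell from 351, 445 and 445 CPM to 10, 33.8 and 9.46 CPM (-4.54, SE 0.66, adjusted p = 0.00268), and the quiescence factor Foxp1 from 198, 228 and 300.1 CPM to 16.8, 12 and 19.1 CPM (-3.92, SE 0.52, adjusted p = 0.00189). Foxo1, a factor that sustains the naive state, fell from 77.8, 57.3 and 82.6 CPM to 10.3, 9.80 and 11.7 CPM (-2.77, SE 0.53, adjusted p = 0.00772). None of them overlapped. The count of shared genes that fell was 7 without pre-transplant replicate 3 or post-transplant replicate 1. B cell list sums fell 45.0-fold between the group means, and the part of B cell transcripts in the falls of shared genes was not tested. Cd27, a costimulatory receptor of naive and memory cells, did not pass the test (1.12, adjusted p = 0.170, and -0.81, adjusted p = 0.170 scaled to pan-T genes).

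Most cell division genes on the lists passed the test. Of 31 S phase genes 22 rose and none fell (median 2.67), and of 33 G2/M genes 22 rose and none fell (median 2.89). Scaled to pan-T genes, 11 S phase genes rose and 2 fell, and 13 G2/M genes rose and 1 fell, so that the direction of the least raised members depended on the scaling. Cdk1, the kinase that starts mitosis, was at 8.55, 6.69 and 12.8 CPM before and 259, 139 and 519 CPM after transplant (5.03, SE 0.68, adjusted p = 0.00197). Birc5, or survivin, a subunit of the complex that guards chromosome attachment, went from 16.5, 28.3 and 21.3 CPM to 425, 373 and 403 CPM (4.18, SE 0.51, adjusted p = 0.00118), and Cdc20, which triggers anaphase, from 44.8, 27.7 and 33.0 CPM to 744, 926 and 326 CPM (4.24, SE 0.58, adjusted p = 0.00208). These 3 stayed higher when scaled to pan-T genes (3.28, 2.31 and 2.29). Birc5 was nearly even across the post-transplant libraries, whereas Cdk1 varied most. Among S phase genes, the origin licensing factor Cdc6 rose from 4.49, 5.23 and 3.69 CPM to 86.9, 50.2 and 85.2 CPM (4.05, SE 0.58, adjusted p = 0.00258) and the histone chaperone subunit Chaf1b from 20.8, 12.5 and 19.2 CPM to 186, 288 and 244 CPM (3.78, SE 0.52, adjusted p = 0.00225). Rrm1 and Top2a, which serve DNA synthesis and untangling, did not pass (1.35, adjusted p = 0.104 and 1.80, adjusted p = 0.120, or -0.51 and -0.014 scaled to pan-T genes).

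**Figure D5:**
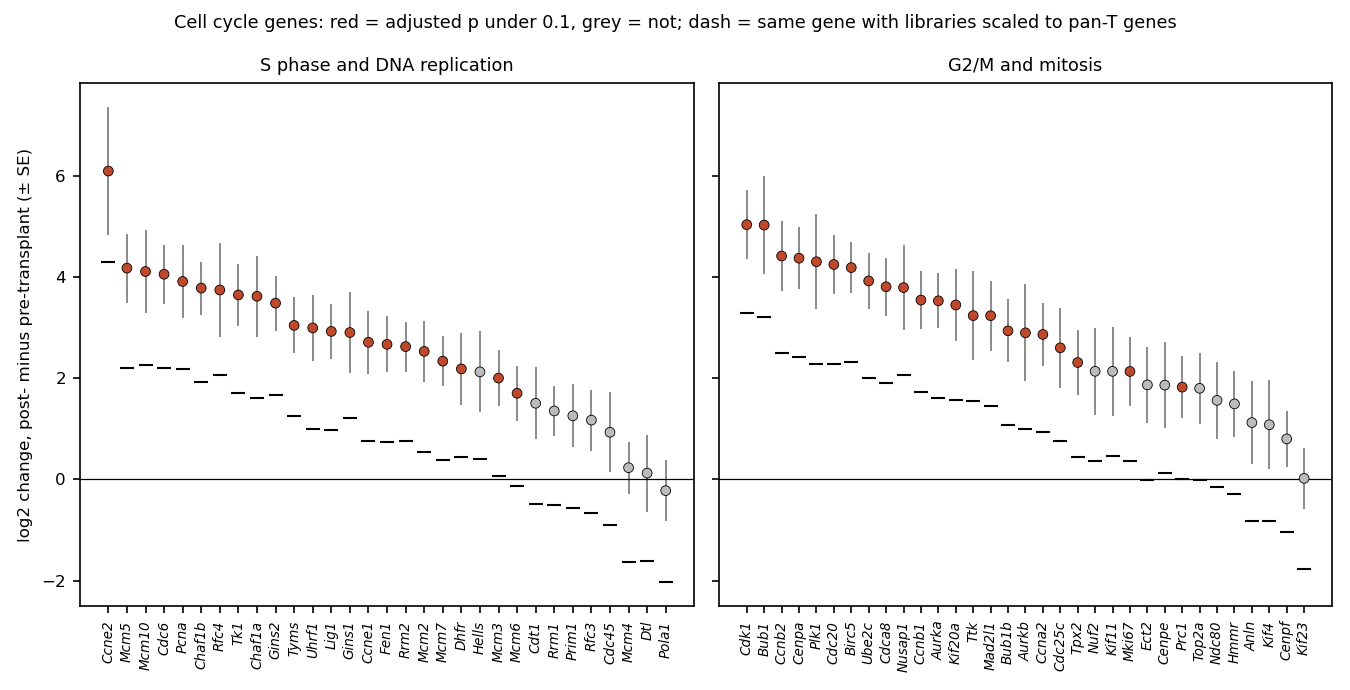
Log2 change (post-transplant minus pre-transplant, ± SE) of every member of the S phase and G2/M lists, in red where the adjusted p was under 0.1 and grey otherwise, with a dash for the same gene scaled to pan-T genes. In each panel 22 points are red, all above 0, and the dashes of the least raised genes lie below 0.

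Promoters of cell cycle genes are known to carry short elements, the E2F site for S phase genes and, for G2/M genes, the CHR often next to CCAAT boxes. They are shown for some named members of both lists that rose. In RefSeq promoter windows (GRCm38.p6), the 250 bases before the start were searched on both strands for the CHR letters TTTGAA or TTCGAA, for CCAAT, and for the E2F letters TTTCCCGC, TTTGGCGC or TTTCGCGC. None of these words contains another. A window was found for 28 of the 33 G2/M genes, of which 22 (78.6%) held CCAAT and 10 (35.7%) CHR letters. Of 11847 tested genes with a window, 40.2% held CCAAT, 16.3% CHR letters and 2.96% E2F letters. E2F letters stood in 9 (34.6%) of the 26 S phase genes with a window and in 1 (3.57%) of the G2/M genes. Among the same S phase genes 16 (61.5%) held CCAAT and 5 (19.2%) CHR letters, so that CCAAT was frequent in both lists. Of all 27025 genes with a window, 37.5% held CCAAT, 19.6% CHR letters and 1.78% E2F letters. The 150 bases before the start are given for 4 genes, 5′ to 3′ on the strand of the gene. Matches to any of the searched words are in capitals. The S phase gene Chaf1b, named above, held no match in its 150 bases and is not printed. Cdk1 (chr10:69352913-69353062, minus strand) held CHR, CCAAT and E2F letters and was the G2/M gene with the E2F match, Cdc20 (chr4:118437344-118437493, minus strand) held CHR and CCAAT letters, Birc5 (chr11:117849087-117849236, plus strand) held no match, and Cdc6 (chr11:98908001-98908150, plus strand) held E2F letters.
Cdk1: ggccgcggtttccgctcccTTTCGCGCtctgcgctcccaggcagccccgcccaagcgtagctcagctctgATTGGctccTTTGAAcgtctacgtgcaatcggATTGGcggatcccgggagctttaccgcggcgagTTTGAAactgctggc
Cdc20: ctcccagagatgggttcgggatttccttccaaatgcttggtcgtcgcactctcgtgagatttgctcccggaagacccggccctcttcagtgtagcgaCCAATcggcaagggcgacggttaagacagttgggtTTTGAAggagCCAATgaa
Birc5: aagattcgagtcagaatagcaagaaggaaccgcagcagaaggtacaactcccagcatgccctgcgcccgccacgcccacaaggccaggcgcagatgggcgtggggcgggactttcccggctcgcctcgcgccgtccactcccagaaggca
Cdc6: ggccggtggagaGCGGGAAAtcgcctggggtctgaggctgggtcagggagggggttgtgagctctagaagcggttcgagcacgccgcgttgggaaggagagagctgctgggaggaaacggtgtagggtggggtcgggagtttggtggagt
The match of letters is a description of these windows, and binding was not measured.

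Of 16 cyclin D and CDK inhibitor genes 5 rose and 2 fell (median 0.82), against 9.7% and 10.3% of all genes tested. Cdk4, the kinase of G1, rose from 191, 154 and 181 CPM to 676, 801 and 505 CPM (1.91, SE 0.44, adjusted p = 0.0187, and 0.0081 scaled to pan-T genes, or -0.40 scaled to Cd8a and Cd8b1), a call lost without pre-transplant replicate 3 (adjusted p = 0.113). Cdkn2a, an inhibitor of that kinase, had 0, 1 and 0 counts before and 24, 59 and 14 counts after transplant, a ratio of 177 (95% counting interval 31 to 7061). The count that rose was 2, 3, 1 and 3 without pre-transplant replicate 1, 2 or 3 or post-transplant replicate 1. The count that fell was 0 without pre-transplant replicate 2 or 3 or post-transplant replicate 1, and 1 without each of the other WT libraries.

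Among metabolic lists, glycolysis and nuclear oxidative phosphorylation held most of the genes that rose under TMM scaling. Of 16 glycolysis genes 12 rose (median 1.93), but scaled to pan-T genes 2 rose and 3 fell (median 0.013). Ldha, lactate dehydrogenase A, was at 530.0, 577 and 558 CPM before and 6105, 7353 and 8918 CPM after transplant (3.75, SE 0.42, adjusted p = 0.000873), and remained higher when scaled to pan-T genes (1.91, adjusted p = 0.00637). Gapdh, another enzyme of the pathway, also passed under TMM and scaled to pan-T genes (3.43, and 1.45, adjusted p = 0.0526), whereas Pkm passed only under TMM (2.79, and 0.82, adjusted p = 0.167). Scaled to Cd8a and Cd8b1, Gapdh missed the threshold (0.95, adjusted p = 0.129). Without pre-transplant replicate 1, 2 or 3 or post-transplant replicate 1, the number of glycolysis genes that rose was 5, 6, 5 and 7. Of 28 nuclear genes of oxidative phosphorylation 21 rose (median 2.13), or 10, 11 and 8 without pre-transplant replicate 1, 2 and 3, and scaled to pan-T genes 6 rose and 3 fell. Sdhb, the iron-sulfur subunit of complex II, rose from 168, 122 and 154 CPM to 1506, 1938 and 2217 CPM (3.67, SE 0.46, adjusted p = 0.00127, and 1.83, adjusted p = 0.00986 scaled to pan-T genes).

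The mitochondrial genome did not follow as a whole. Of its 13 protein-coding genes 2 rose (median 0.80), mt-Co3 and mt-Nd3, and none was higher when scaled to pan-T genes. mt-Co1, a subunit of complex IV, overlapped between groups (0.80, adjusted p = 0.486, and -0.98 scaled to pan-T genes), with pre-transplant replicate 2 at 716 CPM against 4813 and 5247 CPM in the other two. Without post-transplant replicate 2, 5 of these genes rose, and without pre-transplant replicate 3, 1. Reads of mt-Nd3 could be shared with the pseudogene Gm28438. Of 18 cholesterol synthesis genes 1 rose and 1 fell (median 0.091), and of 16 Myc, amino acid transport and ribosome biogenesis genes likewise 1 and 1 (median -0.27). Among all genes tested 9.7% rose and 10.3% fell, so that the counts of these lists did not stand out from the background. The amino acid carrier Slc1a5 overlapped between groups (-0.41, adjusted p = 0.689). The calls of Mvd and Rrp9, which rose, and Wdr43, which fell, were each lost in 3 or more of the fits that left out 1 WT library, whereas without post-transplant replicate 3 the cholesterol list had 2 genes that rose and the Myc list 4.

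Of 17 genes induced by T cell receptor signals 1 rose and 4 fell (median -0.73), against 9.7% and 10.3% of all genes tested. Fos, an immediate early gene, was at 39.2, 39.2 and 56.4 CPM before and 3.56, 0.0609 and 1.71 CPM after transplant (-4.65, SE 1.05, adjusted p = 0.017), and its partner Jun at 95.6, 113 and 94.5 CPM and then 13.6, 29.8 and 3.36 CPM (-2.70, SE 0.74, adjusted p = 0.0361). The gene that rose, Nr4a2, an orphan nuclear receptor, stayed under 11 CPM (2.35, adjusted p = 0.0837), and its call was lost without any 1 WT library. Without pre-transplant replicate 2 or 3 or post-transplant replicate 1, only 1 gene fell. B cell and myeloid sums fell too, and the part of such transcripts in the falls of Fos and Jun was not tested.

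Of 22 interferon-stimulated genes 3 were higher and 3 lower (median -0.46), against 9.7% and 10.3% of all genes tested, so that the list's counts were near the background. Oas1a, Zbp1 and Ifi27l2a rose by 2.06, 2.01 and 1.76, but gave 0.22, 0.20 and -0.045 when scaled to pan-T genes and -0.14, -0.13 and -0.43 when scaled to Cd8a and Cd8b1, and only 1 of the 22 rose without pre-transplant replicate 1, 2 or 3. Rsad2, the antiviral enzyme viperin, fell from 17.2, 6.41 and 34.6 CPM to 0.607, 1.22 and 0.952 CPM (-4.39, SE 0.87, adjusted p = 0.00925). Of 16 class I antigen presentation genes 6 rose (median 1.14), led by the immunoproteasome subunit Psmb8 (2.66, adjusted p = 0.00673) and the activator subunit Psme2 (2.46, adjusted p = 0.00705), and none was higher when scaled to pan-T genes. The count was 2 without any 1 pre-transplant library, 3 without post-transplant replicate 1 and 11 without post-transplant replicate 3. In that library H2-D1, a class I heavy chain, was at 3344 CPM against 15009.6 and 22032 CPM in the other two, so that the groups overlapped (1.31, adjusted p = 0.170, and -0.67 scaled to pan-T genes).

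Of 16 survival and death genes 5 rose and 1 fell (median 0.72), against 9.7% and 10.3% of all genes tested. Scaled to pan-T genes 2 rose and 6 fell (median -1.20), against 2.23% and 55.3% of all genes. Bax, which opens the outer mitochondrial membrane, rose from 82.3 to 103 CPM to 432, 488 and 507 CPM (2.32, SE 0.44, adjusted p = 0.00793, and 0.45, adjusted p = 0.403 scaled to pan-T genes). Bcl2, which opposes Bax, was the gene that fell under TMM, from 108, 86.4 and 107 CPM to 24.6, 8.58 and 24.4 CPM (-2.39, SE 0.58, adjusted p = 0.0219). Its call was lost without pre-transplant replicate 3 or post-transplant replicate 1 (adjusted p = 0.101 and 0.104), and 2 genes fell without post-transplant replicate 3. Bcl2 also stands on the list of genes shared with B cells, and the part of B cell transcripts in its fall was not tested.

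Whether these changes were particular to WT cells was tested as an interaction of genotype and stage over all 12 libraries. By edgeR's quasi-likelihood test 1 of 21526 genes (0.00465%) passed, the pseudogene Gm28438, and 3377 had an unadjusted p under 0.05. None of the 150 genes named by rule passed, the smallest adjusted p among them being 0.160, and 44 had an unadjusted p under 0.05. The count depended on the tool and the scaling, with 1713 genes called by DESeq2's Wald test and 1 by limma-voom. By edgeR it was 1320 scaled to pan-T genes, 2742 scaled to Cd8a and Cd8b1, and 2093 without WT post-transplant replicate 3. The cKO pre-transplant libraries held 4520270 to 9577076 counts, and the source label of 1 cKO post-transplant library, replicate 2, names CD4 cells against its title. No change described here was shown to be particular to WT cells. The interaction of single named genes is given under TMM only.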

How the data were processed

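CD8 T cell RNA was measured in 12 RNA-seq libraries in 4 groups of 3, of which the 6 WT libraries were compared. The authors quantified reads with kallisto 0.46.2 and deposited estimated counts and TPM per transcript for each library; the submitters' notes also list limma and the mm9 build. The files name transcripts by Ensembl ID, and 116374 of 117497 matched GENCODE M21 (GRCm38), which gave gene names and positions. Estimated counts were summed per gene and rounded (35855 genes). Expression filtering (filterByExpr), TMM scaling and the quasi-likelihood test used edgeR 4.0.16 in R 4.3.3, with an FDR of 0.1 and each gene tested over the 6 WT libraries alone. TPM from the deposited files, summed per gene, served only to compare levels between genes. Alternatives used limma 3.58.1 and DESeq2 1.42.0, and the scripts were tested on simulated data. A further pair of scalings used 20 pan-T genes, or Cd8a and Cd8b1. The genotype by stage interaction used all 12 libraries.

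The 34 lists (497 genes), their members and the comparisons were chosen with earlier results of these data known. Named genes (150) were Cd8a, Cd8b1, Cd4, Cd3e and Tcf7, for each list up to 4 called members with the smallest p in its commoner direction, up to 2 in the other and up to 2 uncalled members of highest mean level, and over all genes up to 5 in each direction with the smallest p among called genes without overlap, leaving out other cells' markers, antigen receptor, hemoglobin and unnamed (Gm, Rik) genes. Gm28438 is named beside these as the single interaction call, chosen after its values were seen. With 3 libraries a group, an exact permutation test of a single gene could not go below p = 0.1, so none was used. Depth was 18184814 to 32657005 counts, and 3 counts in a WT library were worth 0.0919 to 0.165 CPM before TMM scaling. Read counts of near-identical genes may be shared between them. Some genes are not reported here.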

Additional observations from a re-analysis of the deposited data

Results flagged for a closer look

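The stage effect of Gm28438 differed between genotypes by the interaction test over 12 libraries, with a log2 change in cKO minus that in WT of -11.7 (edgeR's quasi-likelihood test, adjusted p = 0.0461). The fitted size depends on the prior count, because WT pre-transplant libraries had 0, 0 and 0 counts and WT post-transplant libraries 1541, 433 and 2358 counts, at least 2635-fold higher over the group. The cKO libraries had 363, 367 and 67 counts before and 1179, 1233 and 2053 counts after transplant. Gm28438 is an unprocessed pseudogene of 345 bases on chromosome 1 (24612775 to 24613119, GRCm38), and 312 of its 315 31-base words (99.0%) also stand in the mitochondrial gene mt-Nd3, so that their reads cannot be told apart. Both genes together had 38.3, 15.2 and 32.2 CPM before and 199.6, 171 and 359.7 CPM after transplant in WT libraries. The call was lost with a replicate block and without cKO pre-transplant replicate 2, WT pre-transplant replicate 2 or 3, or cKO post-transplant replicate 1 or 3, where 0 genes passed.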

How the results depend on the processing

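Counts of genes higher and lower, 1628 and 1734 by edgeR with TMM, moved by over 1.5 times in these settings. The number higher was 717 under library totals, 375 scaled to pan-T genes, 250 scaled to Cd8a and Cd8b1, 2493 by DESeq2's Wald test, 3038 by limma-voom with sample quality weights and 2509 in a fit over all 12 libraries. The number lower was 1151 at an FDR of 0.05, 4136 under library totals, 9282 scaled to pan-T genes, 11059 scaled to Cd8a and Cd8b1 and 3280 by limma-voom with weights. Leaving out 1 library gave 694 to 2510 higher and 814 to 1646 lower. The interaction count of 1 was 5 under library totals, 1320 scaled to pan-T genes, 2742 scaled to Cd8a and Cd8b1, 1713 by DESeq2, 3440 by limma-voom with weights, 580 with no filter, 2 with a GC and length offset and 0 to 2093 without 1 library. The correlations of same-numbered deviations were 0.0439, 0.165 and -0.0204, and those of unlike numbers ran from -0.155 to 0.122. With 3 libraries a group these values cannot decide whether replicate numbers pair the samples. With a replicate block 1404 genes were higher, 1693 lower and 0 in the interaction, and with the block and a GC and length offset 1883, 1330 and 2. The cause of these shifts was not tested.

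Scaled to Cd8a and Cd8b1, the log2 change reversed for Cd8a (-0.18), Cd3e (-0.14), Cd6 (-1.22), Ubash3a (-1.12), Cd27 (-1.30), Unc13d (-0.78), Bhlhe40 (-0.28), Itgb2 (-1.09), Cxcr6 (-0.012), Itgal (-1.46), Tnfrsf1b (-1.12), Il18rap (-0.25), Il18r1 (-0.38), Il2rg (-2.14), Anxa5 (-1.24), Rrm1 (-0.83), Top2a (-0.26), Cdk4 (-0.40), Ccnd3 (-0.36), E2f2 (-0.86), Hk1 (-1.21), Atp5a1 (-1.20), mt-Co1 (-1.21), Mvd (-0.67), Rrp9 (-0.50), Oas1a (-0.14), Zbp1 (-0.13), Ifi27l2a (-0.43) and H2-D1 (-1.16). Scaled to pan-T genes it reversed for Cd6 (-0.72), Ubash3a (-0.68), Cd27 (-0.81), Unc13d (-0.28), Itgb2 (-0.64), Itgal (-1.01), Tnfrsf1b (-0.65), Il18r1 (-0.065), Il2rg (-1.71), Anxa5 (-0.89), Rrm1 (-0.51), Top2a (-0.014), E2f2 (-0.38), Hk1 (-0.78), Atp5a1 (-0.80), mt-Co1 (-0.98), Mvd (-0.15), Ifi27l2a (-0.045) and H2-D1 (-0.67). Cd8a on the Cd8a and Cd8b1 scale, and Cd6 and Ubash3a on the pan-T scale, help to set that scale. Their signs there are relative to the set and are no separate result. Library totals reversed Itgal (-0.11), Il2rg (-0.81) and mt-Co1 (-0.0068). Ltb became 0.056 under DESeq2's size factors, 0.056 by its Wald test and 0.071 over all 12 libraries, Srebf2 0.00022 and 0.00026 under the first pair, Bid 0.22 with the GC offset and 0.22 with the replicate block beside it, and Il7r 0.032 with both. Without 1 library, Ltb ranged from -0.53 to 0.36 and Srebf2 from -1.17 to 0.40, both above 0 without post-transplant replicate 1 (0.18 and 0.25) or 3. Irf8 ranged from -0.93 to 0.061, Slc1a5 from -0.86 to 0.21 and Nfkbia from -0.47 to 0.30, above 0 only without post-transplant replicate 3, and Bid from -0.54 to 0.079, above 0 only without post-transplant replicate 2.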
